A study of Mus musculus with 16 samples.

Results

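The genes described here are 43 genes of the integrated stress response and of protein folding in the endoplasmic reticulum (ER), read in isolated glomeruli and in renal cortex of control and diabetic mice. They were taken by name from a list: 23 genes known as targets or partners of the transcription factor ATF4 (the ATF4 arm), 4 genes of the sensors of ER stress and of the factor spliced by one of them, and 16 genes of ER chaperones and ER-associated degradation (the chaperone arm). All 43 were found among the 24722 genes of the glomerular table and the 34264 of the cortex table, and all 43 passed the filter on low counts in both. The glomerulus is the tuft of capillaries that filters the blood, lined by podocytes and held together by mesangial cells, and the cortex is mostly tubules with glomeruli among them. The groups were glomeruli of control mice, glomeruli of diabetic mice, cortex of control mice and cortex of diabetic mice, with 4 libraries each and 16 in all. Every animal was wild type and 24 weeks old, and all libraries carried the label batch 1. Diabetes had been brought on by combining fat-rich feeding with streptozotocin (HFD/STZ in the labels), which destroys pancreatic beta cells, so that effects of the diet, of the toxin and of the diabetic state cannot be told apart. The labels do not say that the numbered libraries came from separate mice, so p-values here reflect no more than the spread among these libraries, and part of that spread may be technical.

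When unfolded protein builds up in the ER, when amino acids run short or when mitochondria fail, kinases phosphorylate the translation factor eIF2alpha, general protein synthesis slows and the messenger RNA of ATF4 is translated more. ATF4 then switches on genes of amino acid synthesis, amino acid import and tRNA charging, together with feedback genes such as Trib3, Chac1 and Ddit3, and because its control lies in translation its own messenger RNA need not change. The chaperones and degradation factors of the ER are driven mainly by the other branches of the unfolded protein response, through cleaved ATF6 and spliced XBP1.

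The stretches of promoter below are shown because the arms differ in the elements that ATF4 and the ER stress factors are known to bind. The core of the element bound by C/EBP and ATF factors was searched as TGATGNAA, and the ER stress element as CCAAT followed after 9 bases by CCACG, on both strands of RefSeq windows from 250 bases before to 50 bases after each start (GRCm38.p6; 38 of the 43 genes had an entry). The first was found in 6 of 25 promoters of the ATF4 arm (24.0%; 21 genes, some with several starts), in 1 of 14 of the chaperone arm (7.14%) and in 3.97% of all 32851 promoters. The second was found in 7 of 14 promoters of the chaperone arm (50%), in 0 of 25 of the ATF4 arm and in 0.119% of all promoters. A further motif, TGACGTGG, the core of the unfolded protein response element, was in 0.676% of all promoters and in none of these genes' windows. The examples below show each kind, written 5′ to 3′ on the strand of the gene with the match in capitals. On the opposite strand a match reads TTNCATCA, or CGTGG followed after 9 bases by ATTGG. The Asns and Hspa5 stretches are kept to at most 30 bases because they lie inside the gene as GENCODE M21 annotates it, and the others lie before its start.
Asns, chr6:7693214-7693243, minus strand: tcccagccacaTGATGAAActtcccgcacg
Chac1, chr2:119351029-119351076, plus strand: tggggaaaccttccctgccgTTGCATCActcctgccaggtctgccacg
Slc7a11, chr3:50443652-50443699, minus strand: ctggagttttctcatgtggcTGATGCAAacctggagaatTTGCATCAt
Herpud1, chr8:94386297-94386344, plus strand: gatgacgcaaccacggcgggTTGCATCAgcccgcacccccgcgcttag
Hspa5, chr2:34772020-34772048, plus strand: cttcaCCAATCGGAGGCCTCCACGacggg
Hsp90b1, chr10:86705618-86705676, minus strand: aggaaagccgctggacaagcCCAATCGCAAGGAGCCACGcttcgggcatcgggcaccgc
Pdia6, chr12:17266471-17266529, plus strand: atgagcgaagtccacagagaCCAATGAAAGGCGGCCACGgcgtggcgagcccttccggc
Creld2, chr15:88819500-88819558, plus strand: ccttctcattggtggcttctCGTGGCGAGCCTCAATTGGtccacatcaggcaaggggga
Slc7a11 holds a pair of matches, one on each strand, and Herpud1 is the 1 gene of the chaperone arm with the C/EBP and ATF letters. A match describes letters in a window, and no factor's binding was measured.

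Several libraries stood apart, and results that rest on them are given with and without them. Total counts per library were 36339294 to 41876031 in glomeruli and 57473100 to 72352656 in cortex. Glomerular libraries 3 and 4 of the controls, and 1 and 4 of the diabetic group, differed from each other by a chi-square per gene of 2.76 and 6.69, against 45.7 to 97.9 for the other pairs of their groups. Each pair was summed into 1 sample, called 3+4 and 1+4, which left n = 3 glomerular samples a group against n = 4 in cortex. The summed level of 12 proximal tubule markers was 52.5 to 64.3 CPM (counts per 1000000 of the scaled library total) in control glomeruli and 999.8, 80.9 and 484 CPM in diabetic samples 1+4, 2 and 3, so that sample 2 was the closest to the controls. The sum of 12 markers of the distal nephron and collecting duct moved in the same way, at 55.7 to 77.5 CPM in control glomeruli and 1787, 81.9 and 811 CPM in diabetic samples 1+4, 2 and 3. Of the proximal markers 10 of 12 rose and of the distal ones 9 of 12, with 0 lower, and 1 distal marker was at 0 in 1 control sample. By the same test, edgeR, 19.4% of the whole glomerular set of 15238 genes rose and 18.2% fell. The podocyte marker sum was 4261 to 5463 CPM in control glomeruli, 1997 to 3947 CPM in diabetic glomeruli and 286 to 355 CPM in cortex, with no defining marker at 0. Control cortex library 4 had a proximal marker sum of 13803 CPM against 20742 to 21998 CPM in the other controls. In whole tissue, fewer cells of a type and less RNA per cell cannot be told apart.

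In diabetic glomeruli most genes of the ATF4 arm were higher and no gene of the chaperone arm was. Of 23 genes of the ATF4 arm 14 rose and 0 fell by edgeR's quasi-likelihood test (14 and 0 also at an unadjusted p under 0.05 and by DESeq2). Among all 15238 genes tested, 19.4% were called higher and 18.2% lower. The 14 genes make serine, glycine, one-carbon units and asparagine, carry amino acids into the cell, charge a tRNA (Aars), or belong to the feedback and stress effectors of the pathway. The median log2 fold change of the arm was 0.67, beside 0.01 for all genes, and 22 of its 23 fold changes were above 0. Of the 16 genes of the chaperone arm 0 rose and 3 fell (0 and 4 at an unadjusted p under 0.05, and 0 and 3 by DESeq2), with a median of -0.07, and this median was 0.12 with library totals in place of the TMM scaling. Library totals moved the median of all genes from 0.01 to 0.20 and the share of calls that were higher from 51.6% to 72.5%. Relative to the median of all genes, the ATF4 arm stood at 0.66 and the chaperone arm at -0.08 on either scaling.

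**Figure D1:**
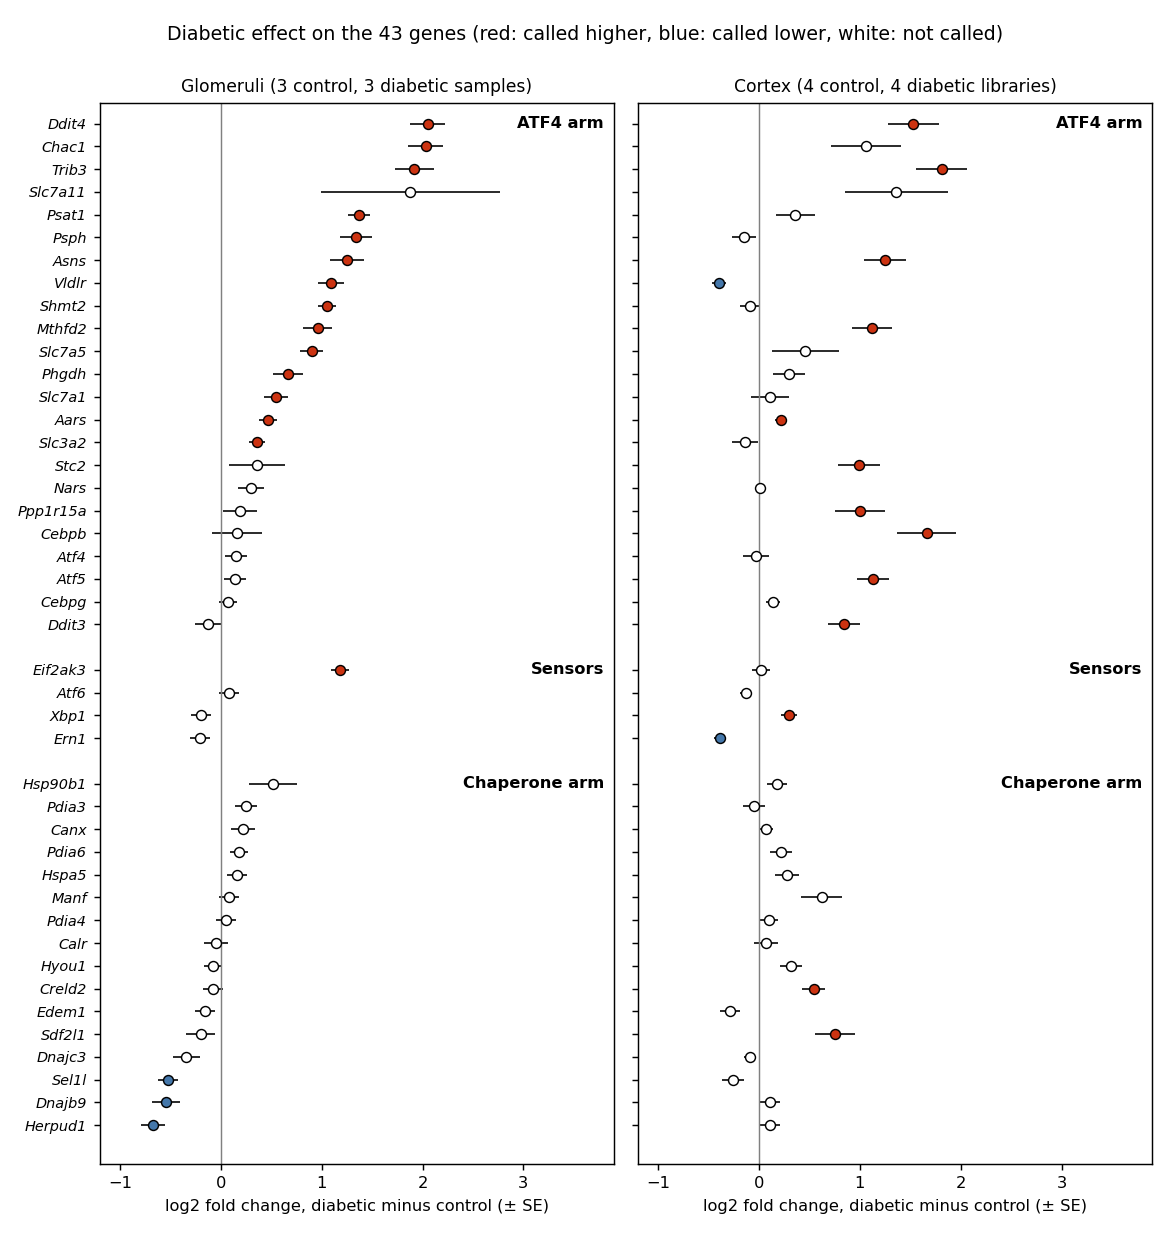
Log2 fold change (diabetic minus control, ± SE) of each of the 43 genes in glomeruli (left) and cortex (right), in 3 groups ordered by the glomerular value; red points were called higher, blue points lower and white points not called by edgeR at an adjusted p under 0.05. In glomeruli the red points lie in the ATF4 arm and at Eif2ak3, while the chaperone arm holds 3 blue points and no red one.

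The transcription factors of the arm did not pass the test in glomeruli: 0 of 5 were called by edgeR, 0 at an unadjusted p under 0.05 and 0 by DESeq2. Atf4 itself (chromosome 15, 80255184 to 80257541) was at 306, 297 and 273 CPM in control samples 1, 2 and 3+4, against 316, 360.5 and 292 CPM in diabetic samples 1+4, 2 and 3. The groups overlapped, and its log2 fold change was 0.15 ± 0.11 (SE; edgeR adjusted p = 0.324). With library totals Atf4 and Atf5 were called higher. Ddit3, which encodes the pro-apoptotic factor CHOP, was at 34.4, 43.5 and 36.4 CPM in controls, and the diabetic samples were at 31.6, 33.6 and 39.0 CPM. Its fold change of -0.13 ± 0.13 (adjusted p = 0.435) turned to 0.05 with library totals. Atf5, Cebpb and Cebpg, relatives and partners of ATF4, had log2 fold changes of 0.14, 0.16 and 0.07.

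Of 6 feedback and effector genes 4 rose in glomeruli. Trib3 (chromosome 2, 152337422 to 152344032), a pseudokinase induced by ATF4 that then restrains it, was at 14.9, 14.2 and 15.1 CPM in controls, against 55.8, 69.8 and 41.5 CPM in diabetic samples 1+4, 2 and 3. Every diabetic sample lay above every control, as in 26.6% of all genes tested (in 27.6% the diabetic samples lay below all controls), and the log2 fold change was 1.92 ± 0.19 (edgeR adjusted p = 0.000968). Chac1 (chromosome 2, 119351229 to 119354381), which encodes an enzyme that degrades glutathione, was at 10.2, 8.94 and 11.2 CPM against 40.8, 49.9 and 33.0 CPM (2.03 ± 0.17, adjusted p = 0.000679). Ddit4, which encodes the mTORC1 inhibitor REDD1, was at 42.3, 55.3 and 36.4 CPM against 179.6, 204 and 171 CPM (2.05 ± 0.17, adjusted p = 0.000644). These 3 genes had the largest fold changes of the 43 that passed the test, at 3.78, 4.08 and 4.15 times the control mean. Vldlr, which encodes a lipoprotein receptor, was at 18.6, 25.6 and 23.3 CPM against 47.9, 49.7 and 46.0 CPM (1.09 ± 0.13, adjusted p = 0.00152), and its diabetic samples lay close together. Ppp1r15a, which encodes the phosphatase subunit GADD34 that reverses eIF2alpha phosphorylation, and the secreted glycoprotein gene Stc2 did not pass (0.19 ± 0.17 and 0.36 ± 0.28).

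All 5 enzymes of serine, glycine and mitochondrial one-carbon metabolism rose. Psat1 (chromosome 19, 15904678 to 15947337), the aminotransferase of serine synthesis, was at 53.4, 54.4 and 49.5 CPM in control and 130.3, 156 and 121 CPM in diabetic samples (1.37 ± 0.11, edgeR adjusted p = 0.000594). Psph, the phosphatase of the last step, was at 17.9, 20.4 and 18.9 CPM against 50.2, 56.98 and 37.8 CPM (1.34 ± 0.16, adjusted p = 0.00161). Groups did not overlap for either enzyme, and diabetic sample 2 was the highest for both. Shmt2, the mitochondrial serine hydroxymethyltransferase, was at 67.6, 68.5 and 60.7 CPM against 137, 145 and 126 CPM (1.05 ± 0.09, adjusted p = 0.000669). Mthfd2, the next enzyme of the mitochondrial folate pathway, was at 50.04, 49.7 and 48.6 CPM against 96.1, 114 and 77.3 CPM (0.96 ± 0.14, adjusted p = 0.00333). Phgdh, which catalyses the first step of serine synthesis, had the smallest change of the 5, from 163 ± 26.8 to 259 ± 34.0 CPM (SD, n = 3 each; 0.67 ± 0.15, adjusted p = 0.0153), and it was no longer called without control sample 3+4 (adjusted p = 0.0530).

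The transcript of asparagine synthetase rose, as did those of 3 of 4 amino acid transporters and 1 of 2 tRNA synthetases. Asns (chromosome 6, 7675169 to 7693254), the asparagine synthetase, was at 82.7, 74.8 and 78.5 CPM in control and 188.5, 229.8 and 145 CPM in diabetic samples (1.25 ± 0.17, edgeR adjusted p = 0.00241). Slc7a5, the light chain of the LAT1 exchanger of large neutral amino acids, was at 69.5, 58.5 and 70.4 CPM against 115, 134 and 122 CPM (0.90 ± 0.11, adjusted p = 0.00154). Neither gene's groups overlapped. The heavy chain gene Slc3a2 changed less, from 154 ± 5.86 to 198 ± 12.8 CPM (0.36 ± 0.08, adjusted p = 0.0165; not called in 2 of the alternatives, with an adjusted p of up to 0.0641), and the cationic amino acid transporter gene Slc7a1 went from 154 ± 9.32 to 225 ± 31.4 CPM (0.55 ± 0.12, adjusted p = 0.0126). Slc7a11, the cystine importer xCT, was at 0.967, 16.1 and 3.26 CPM in control and 26.8, 32.0 and 15.5 CPM in diabetic samples. Control sample 2 was above diabetic sample 3, the SE was wide, and the gene was not called (1.88 ± 0.89, adjusted p = 0.143). The alanyl-tRNA synthetase gene Aars rose from 239 ± 6.59 to 331 ± 25.2 CPM (0.47 ± 0.09, adjusted p = 0.00785), while the asparaginyl-tRNA synthetase gene Nars did not pass (0.30 ± 0.13, adjusted p = 0.112).

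**Figure D2:**
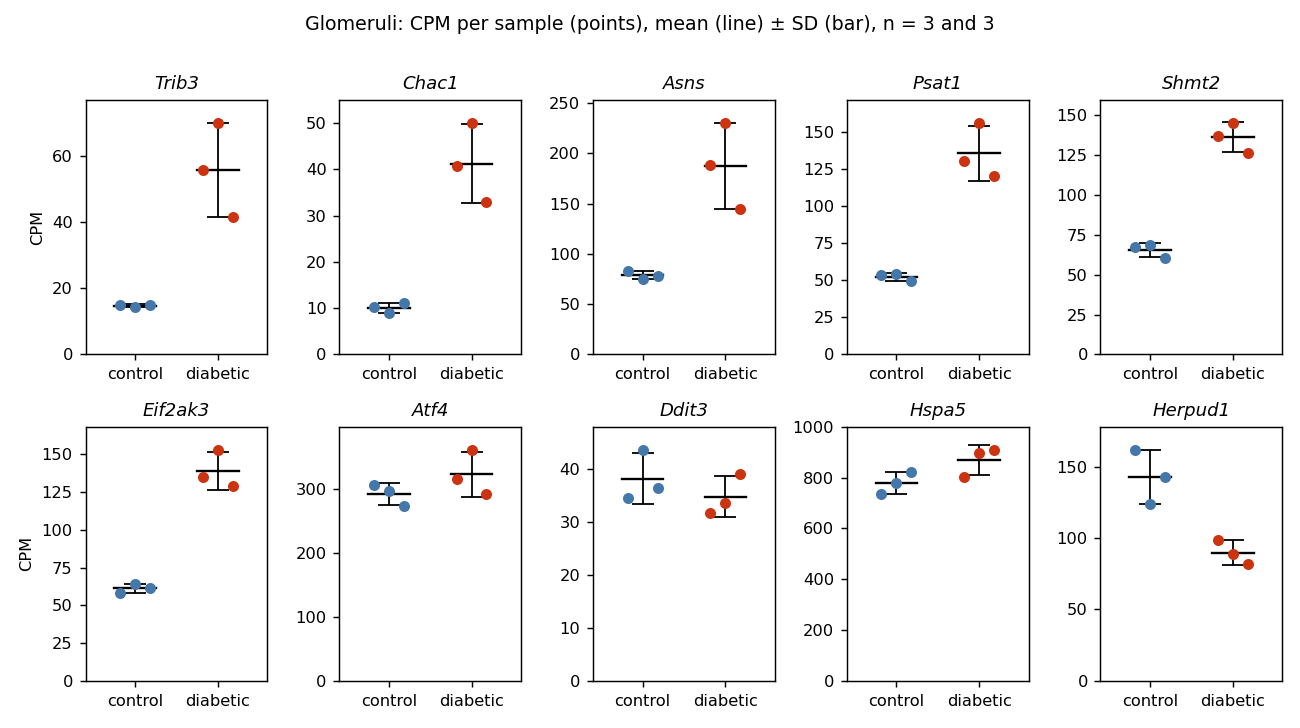
CPM per glomerular sample (points; blue control, red diabetic), with the mean (line) and SD (bar) of n = 3 samples a group, for 10 of the genes, each panel on its own axis from 0. Trib3, Chac1, Asns, Psat1, Shmt2 and Eif2ak3 have separate groups with the diabetic samples above, Atf4, Ddit3 and Hspa5 have overlapping groups, and Herpud1 has its diabetic samples below the controls.

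Among the sensors, Eif2ak3 rose alone. Eif2ak3 (chromosome 6, 70844515 to 70905245) encodes PERK, the ER kinase that phosphorylates eIF2alpha, and was at 58.4, 64.5 and 61.5 CPM in control and 135, 153 and 129 CPM in diabetic samples. Every diabetic sample was above every control, with a log2 fold change of 1.18 ± 0.09, and its edgeR adjusted p of 0.000558 was the smallest of the 43 genes. Xbp1, which encodes the factor spliced by IRE1, was at 169, 146 and 152.5 CPM in control and 130.3, 129 and 149 CPM in diabetic samples, with overlapping groups (-0.20 ± 0.10, adjusted p = 0.158). Counts per gene do not separate spliced from unspliced Xbp1. Ern1, which encodes IRE1alpha, and Atf6 did not pass either (-0.21 ± 0.10 and 0.08 ± 0.10).

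Of the 16 genes of the chaperone arm 3 fell (18.8%) and 13 were not called. The share that fell was near the 18.2% of all genes tested. Hspa5 (chromosome 2, 34771970 to 34777547), which encodes the master ER chaperone BiP, was at 737, 779.7 and 820.5 CPM in control and 801, 896 and 909.5 CPM in diabetic samples. The groups overlapped and the log2 fold change was 0.16 ± 0.10 (edgeR adjusted p = 0.259). The 3 genes that fell act in or beside ER-associated degradation, but Edem1, also of degradation, was not called (-0.16 ± 0.10, edgeR adjusted p = 0.274). Sel1l, the adaptor of the HRD1 ubiquitin ligase, was at 251, 209 and 242 CPM in control and 159, 161 and 169.9 CPM in diabetic samples (-0.52 ± 0.10, adjusted p = 0.00710). Herpud1, a membrane factor of the same complex, went from 143 ± 19.0 to 89.8 ± 8.57 CPM (-0.67 ± 0.12, adjusted p = 0.00716). Dnajb9, a co-chaperone of BiP, went from 77.7 ± 15.4 to 53.5 ± 2.69 CPM (-0.54 ± 0.14, adjusted p = 0.0268) and was lost in 8 of the alternatives, with an adjusted p of up to 0.239. The remaining 12 genes (Hsp90b1, Dnajc3, Edem1, Pdia3, Pdia4, Pdia6, Calr, Canx, Sdf2l1, Creld2, Manf and Hyou1) had log2 fold changes between -0.34 and 0.52 and none was called. The largest was that of Hsp90b1, the ER Hsp90 chaperone GRP94, at 509 ± 164 CPM in control and 731 ± 75.8 CPM in diabetic samples (SD, n = 3 each; 0.52 ± 0.24, adjusted p = 0.139). For Hsp90b1, Pdia3, Pdia6 and Canx every diabetic sample was above every control, although none passed the test. For Dnajb9, Dnajc3, Herpud1 and Sel1l every diabetic sample was below every control. Among all genes tested, 26.6% lay apart upward in this way and 27.6% downward. With library totals Hspa5, Canx, Manf, Pdia3 and Pdia6 were called higher and Herpud1 and Sel1l remained lower. On that scaling 4388 of all 15238 genes tested were called higher and 1661 lower.

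The ATF4 arm was highest in the diabetic glomerular sample with the lowest sums of proximal and distal tubule markers. Its mean log2 CPM relative to the control mean was 0.84, 1.03 and 0.72 in diabetic samples 1+4, 2 and 3, and -0.07, 0.11 and -0.04 in control samples 1, 2 and 3+4. Sample 2 was the highest diabetic sample for 21 of the 23 genes. The chaperone arm was at -0.17, -0.09 and 0.05 in the same diabetic samples, and sample 3 was the highest for 14 of its 16 genes. How many of all genes were highest in each sample was not counted. Without diabetic libraries 1, 3 and 4, which left library 2 alone and assumed to vary like the controls, 13 genes of the ATF4 arm were called higher and 0 lower, with a median of 0.90. In that fit 1356 of all 15835 genes tested were called higher and 937 lower. Of the chaperone arm 0 genes were called in either direction, and Herpud1, Sel1l and Dnajb9 had log2 fold changes of -0.66, -0.51 and -0.47 (edgeR adjusted p = 0.0756, 0.0923 and 0.239). The mesangial and smooth muscle marker sum was 16964 to 19392 CPM in control and 3231 to 5762 CPM in diabetic glomeruli. In the fit of all samples 4 of its 7 markers were called lower and 0 higher by edgeR. At an unadjusted p under 0.05 and by DESeq2, 5 were lower and 1 higher. Of all 15238 genes in that fit, edgeR called 18.2% lower and 19.4% higher. The part of these markers and of the tubule markers in these results was not tested.

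**Figure D3:**
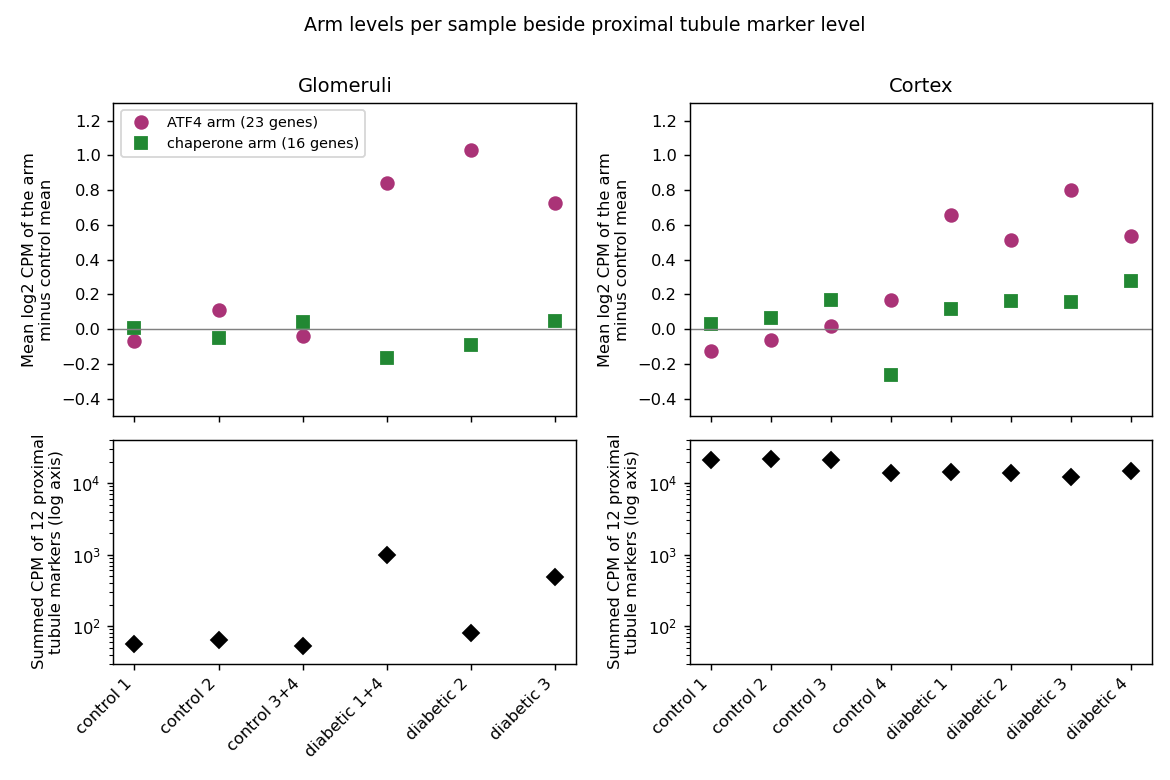
Top: mean log2 CPM of the ATF4 arm (23 genes, circles) and chaperone arm (16 genes, squares) in each sample, minus the mean of the controls of that tissue. Bottom: summed CPM of 12 proximal tubule markers on a log axis. In glomeruli the ATF4 arm is at 0.84, 1.03 and 0.72 in the diabetic samples while the marker sum ranges from 80.9 to 999.8 CPM.

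In diabetic cortex genes of the ATF4 arm were also higher. Of its 23 genes 10 rose and 1 fell (12 and 1 at an unadjusted p under 0.05, 11 and 1 by DESeq2), where 10.8% of all 19228 genes tested were called higher and 9.29% lower. The median log2 fold change was 0.46, beside -0.00 for all genes. In the chaperone arm 2 rose and 0 fell by edgeR (5 and 2 at an unadjusted p under 0.05, 4 and 1 by DESeq2), with a median of 0.11. Library totals called 4 of its genes higher, beside 2326 of all 19228. Without control library 4, the one with low proximal markers, the ATF4 arm had 12 higher and 2 lower with a median of 0.87, and the chaperone arm had 4 higher and 2 lower. The genes that rose were mainly transcription factors and stress effectors, with Asns and Mthfd2 beside them.

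Of the 5 transcription factors 3 rose in cortex, and Atf4 was not among them. Atf4 was at 93.2, 95.5, 101 and 100.4 CPM in control libraries 1 to 4 and at 109, 66.8, 103 and 102 CPM in diabetic libraries 1 to 4 (-0.03 ± 0.13, edgeR adjusted p = 0.904). Atf5 (chromosome 7, 44812256 to 44816658), a close relative of ATF4 linked to mitochondrial stress, was at 6.34, 9.10, 7.67 and 8.73 CPM in control and 15.4, 15.5, 22.7 and 16.1 CPM in diabetic libraries (1.13 ± 0.16, adjusted p = 0.00151). The Atf5 groups were well separated (all diabetic libraries lay above all controls for 13.5% of all genes tested, and below for 11.4%), whereas diabetic library 2 was the lowest of all 8 for Atf4. Ddit3 was at 10.7, 8.92, 12.9 and 13.8 CPM against 19.5, 16.3, 24.5 and 22.97 CPM (0.84 ± 0.16, adjusted p = 0.00646). Cebpb, a leucine zipper factor that also responds to inflammatory signals, was at 14.2, 17.2, 32.6 and 34.8 CPM against 76.7, 81.0, 82.5 and 73.2 CPM (1.66 ± 0.29, adjusted p = 0.00677). Neither gene's groups overlapped, and the control libraries of Cebpb fell in a low and a higher pair. Cebpg was not called (0.14 ± 0.07).

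The effectors rose in 4 of 6 cases and fell in 1. Trib3 was at 0.651, 0.851, 0.761 and 1.05 CPM in control and 3.13, 2.09, 3.71 and 2.72 CPM in diabetic cortex (1.81 ± 0.25, edgeR adjusted p = 0.00130). These levels rest on 38 to 74 counts a library in controls and 149 to 237 in diabetic cortex. Ddit4 was at 18.6, 16.9, 26.8 and 29.1 CPM against 74.5, 86.6, 61.0 and 42.9 CPM (1.53 ± 0.25, adjusted p = 0.00540). Stc2 was at 2.02, 2.13, 2.65 and 2.67 CPM against 4.65, 4.08, 6.48 and 3.68 CPM (0.99 ± 0.21, adjusted p = 0.00919). Groups did not overlap for these 3 genes. Ppp1r15a went from 12.8 ± 4.72 to 25.7 ± 5.51 CPM (SD, n = 4 each; 1.00 ± 0.25, adjusted p = 0.0245) with overlapping groups, and the call was lost in 6 of the alternatives. Chac1 had a log2 fold change of 1.06 ± 0.35 on 29 to 185 counts a library and did not pass by edgeR (adjusted p = 0.0575), although DESeq2 called it higher. Vldlr fell, from 107, 102, 95.4 and 91.0 CPM to 75.1, 76.6, 67.7 and 79.8 CPM (-0.40 ± 0.07, adjusted p = 0.00419), with no overlap of the groups.

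Of the amino acid genes only Asns, Mthfd2 and Aars were called in cortex. Asns was at 3.26, 4.98, 3.43 and 4.35 CPM in control and 9.96, 8.41, 12.7 and 6.93 CPM in diabetic libraries (1.25 ± 0.21, edgeR adjusted p = 0.00338). Mthfd2 was at 3.31, 3.07, 2.46 and 3.24 CPM against 7.14, 5.14, 8.66 and 5.31 CPM (1.12 ± 0.20, adjusted p = 0.00411). Both had separate groups, and diabetic library 3 was the highest for each. Aars was at 119, 122, 108 and 107 CPM against 135, 133, 132 and 131 CPM, a small change (0.22 ± 0.06, adjusted p = 0.0237) that was not called in 5 of the alternatives. Psat1, Phgdh, Psph and Shmt2 had log2 fold changes of 0.36, 0.30, -0.15 and -0.09, and none passed. The 4 amino acid transporters were not called by edgeR or DESeq2 (0 of 4), and 1 passed an unadjusted p under 0.05.

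**Figure D4:**
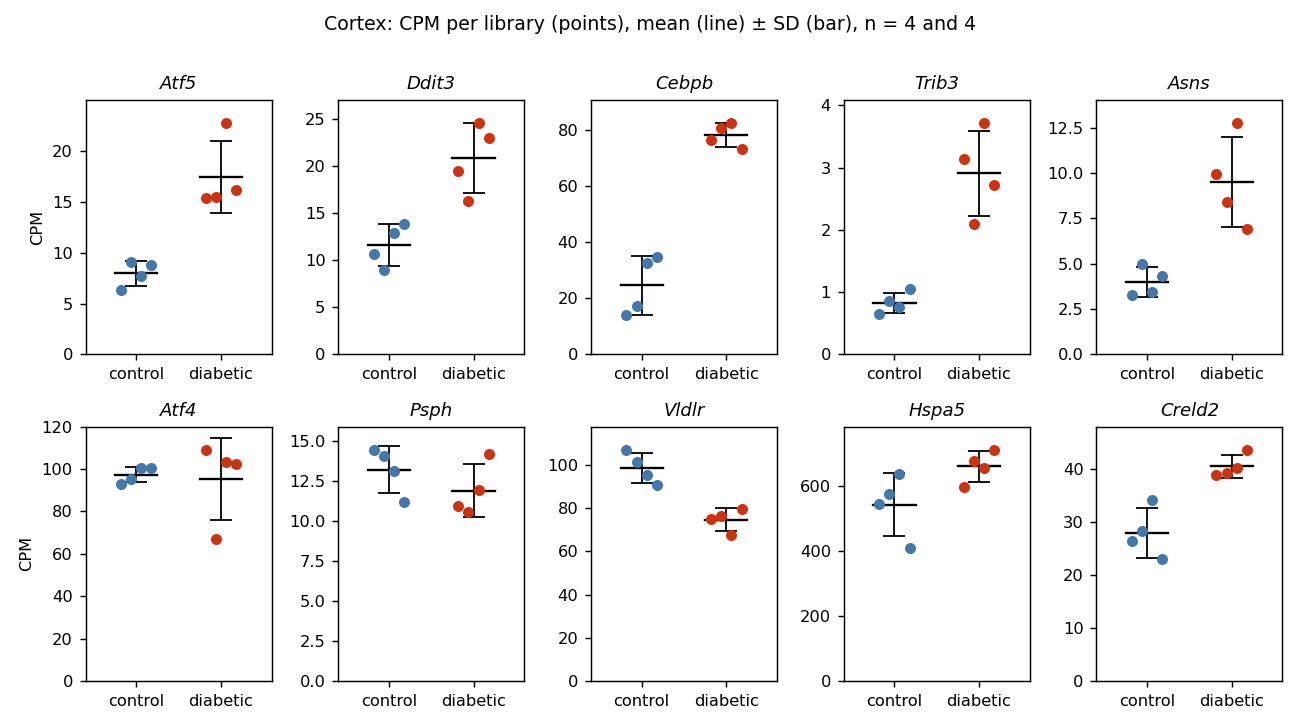
CPM per cortex library (points; blue control, red diabetic), with the mean (line) and SD (bar) of n = 4 libraries a group, for 10 of the genes, each panel on its own axis from 0. Atf5, Ddit3, Cebpb, Trib3, Asns and Creld2 have their diabetic libraries above all controls, Vldlr has them below, and Atf4, Psph and Hspa5 have overlapping groups.

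Of the 4 sensor genes 1 rose and 1 fell in cortex, and of the 16 chaperone genes 2 rose (12.5%). By edgeR the chaperone share was near the 10.8% of all genes tested that were called higher. DESeq2 called 4 of the 16 higher and 1 lower, beside 2628 and 2298 of all 19228 genes tested. An unadjusted p under 0.05 gave 5 higher and 2 lower, beside 3299 and 3145 of all genes. Ern1 fell, from 35.4, 34.6, 34.0 and 33.8 CPM in control to 27.2, 26.1, 25.1 and 26.6 CPM in diabetic libraries (-0.39 ± 0.06, edgeR adjusted p = 0.00152). Xbp1 rose, from 118, 142, 121 and 105 CPM to 150.2, 153, 143 and 151 CPM (0.30 ± 0.08, adjusted p = 0.0334), with no overlap of the groups, but it was not called in 7 of the alternatives. Eif2ak3 stood at 40.7 ± 5.56 and 41.4 ± 1.51 CPM (0.02 ± 0.09). Hspa5 was at 545, 575, 638 and 409 CPM in control and 596, 676, 655 and 711 CPM in diabetic libraries (0.28 ± 0.12, adjusted p = 0.139). Control library 4 was the lowest for Hspa5 and for 12 more of the 16 chaperone genes, with no such count made over all genes. Creld2, which encodes a secreted ER stress protein, was at 26.4, 28.4, 34.2 and 22.97 CPM against 39.0, 39.3, 40.4 and 43.7 CPM (0.54 ± 0.11, adjusted p = 0.00770). Sdf2l1, a cofactor of BiP, went from 5.48 ± 1.30 to 9.22 ± 2.06 CPM (0.75 ± 0.20, adjusted p = 0.0277) with overlapping groups, and was not called in 6 of the alternatives. Manf and Hyou1, also ER stress genes, had log2 fold changes of 0.62 ± 0.20 and 0.32 ± 0.11 and did not pass by edgeR, although DESeq2 called both higher. The remaining 11 genes lay between -0.29 and 0.22 on the log2 scale, and none was called.

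Other cell and stress markers moved in cortex beside these genes, where 10.8% of all genes tested were called higher and 9.29% lower. Of 10 macrophage and myeloid markers 9 rose, and their sum went from 218 to 378 CPM in control to 529 to 814 CPM in diabetic libraries. Of 10 immediate early and heat shock genes 7 rose (Fos, Fosb, Jun, Junb, Egr1, Ier2 and Dusp1), among them Jun from 36.7 to 127.0 CPM, while the sum of the 10, dominated by Hspa8, overlapped at 2423 to 3128 and 2428 to 2762 CPM. In glomeruli 0 of these 10 rose and 2 fell by edgeR (0 and 2 at an unadjusted p under 0.05, 0 and 3 by DESeq2). Of 8 lymphocyte and plasma cell markers 4 rose and 0 fell, and their sum went from 5.42 to 8.00 CPM in control to 28.5 to 51.8 CPM in diabetic libraries, beside the higher Creld2, Sdf2l1 and Xbp1. Of 12 proximal tubule markers 8 fell in cortex, and of 12 distal ones 5 fell and 1 rose. Of these 5 lists only the lymphocyte and plasma cell one had a marker at 0, 1 in each of 2 control libraries. Their part in the cortex changes was not tested.

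Of the 15 genes that rose in glomeruli and the 13 that rose in cortex, 5 rose in both (Aars, Asns, Ddit4, Mthfd2 and Trib3), which is 33.3% of the first and 38.5% of the second. The matching share among all genes was not worked out, so the overlap cannot be called particular to these genes. Vldlr rose in glomeruli and fell in cortex. A further 16 genes, among them Atf4, Hspa5 and Hsp90b1, were called in neither tissue. The difference of the diabetic effect, glomeruli minus cortex, was tested in a model of all 4 groups. Of all 16493 genes tested in it 18.8% were called higher and 16.3% lower.

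In that test 5 genes of the ATF4 arm had a larger change in glomeruli and 3 a smaller one, and in the chaperone arm 0 were higher and 4 lower (0 and 5 at an unadjusted p under 0.05, 0 and 4 by DESeq2). The first 5 were Psph (difference of log2 fold changes 1.49 ± 0.20, edgeR adjusted p = 0.000116), Vldlr (1.49 ± 0.14), Shmt2 (1.14 ± 0.15), Psat1 (1.02 ± 0.26) and Slc3a2 (0.50 ± 0.18). The call of Slc3a2 was lost in 14 of the alternatives. The 3 with a smaller change were the transcription factors Cebpb (-1.49 ± 0.41), Atf5 (-0.98 ± 0.21) and Ddit3 (-0.97 ± 0.23), which had not been called in glomeruli. Eif2ak3 changed more in glomeruli (1.15 ± 0.13, adjusted p = 2.9e-05) and Xbp1 less (-0.49 ± 0.14, adjusted p = 0.0149). The 4 chaperone genes were Sdf2l1 (-0.95 ± 0.29), Herpud1 (-0.77 ± 0.18), Dnajb9 (-0.65 ± 0.18) and Creld2 (-0.62 ± 0.16). For Asns and Trib3 the differences were 0.00 ± 0.31 and 0.11 ± 0.30, so that changes of the same size in both tissues could not be told from moderate differences.

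Levels were compared between genes only per length. In control glomeruli the highest FPKM values (the authors' values, scaled by gene length and library size) among the 43 genes were those of Calr at 488, Hspa5 at 284 and Pdia3 at 227, all ER chaperones. Atf4 was at 156 FPKM, while Trib3, Chac1, Psph, Vldlr and Slc7a11 were at 6.79, 6.21, 4.57, 1.68 and 0.593 FPKM. In diabetic glomeruli Trib3 and Chac1 reached 29.2 and 28.2 FPKM. In control cortex Calr was highest at 214 FPKM and Trib3, Chac1 and Asns were at 0.352, 0.478 and 1.33 FPKM. The 2 tissues' tables were counted differently, and levels were not tested between them.

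A further 3 lists were read beside the 43 genes. Of 20 other genes of the integrated stress response 10 rose and 2 fell in glomeruli, and 7 rose and 2 fell of 19 tested in cortex. DESeq2 gave the same counts, and an unadjusted p under 0.05 gave 12 and 2 in glomeruli and 8 and 2 in cortex. Over all genes edgeR found 19.4% higher and 18.2% lower in glomeruli, and 10.8% and 9.29% in cortex. The share of the list that fell was thus below that of all genes in glomeruli (10.0%) and near it in cortex. The higher ones in glomeruli included Gpt2, an alanine aminotransferase (1.20 ± 0.11), Aldh18a1, an enzyme of proline synthesis (0.98 ± 0.09), Sesn2, an inhibitor of mTORC1 (0.88 ± 0.08), and Gdf15, a secreted stress hormone. Gdf15 was at 73.5, 74.5 and 60.5 CPM in control and 206, 236 and 174 CPM in diabetic glomeruli (1.56 ± 0.14, edgeR adjusted p = 0.000776). The 2 that fell in glomeruli, named after their values were seen, were Nupr1, a stress-induced chromatin factor, from 1161 ± 261 to 288 ± 40.7 CPM (-2.01 ± 0.20, adjusted p = 0.000973), and Eif2ak1, the heme-regulated eIF2alpha kinase (-0.25 ± 0.07). In cortex Gdf15 was at 5.35, 5.16, 6.89 and 11.5 CPM against 42.2, 69.8, 97.8 and 62.4 CPM (3.23 ± 0.35, adjusted p = 0.00130), the smallest adjusted p of this list, with no overlap of the groups in either tissue. Atf3, a factor of the same pathway, rose in cortex (2.28 ± 0.37), as did the translation repressor gene Eif4ebp1 (0.78 ± 0.14), while Ppp1r15b, the constitutive counterpart of Ppp1r15a, fell (-0.27 ± 0.05).

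Of 18 cytosolic aminoacyl-tRNA synthetase genes other than Aars and Nars, 14 rose and 0 fell in glomeruli (15 and 0 at an unadjusted p under 0.05 and by DESeq2), with a median log2 fold change of 0.55. The 4 with the smallest adjusted p were Vars (0.84 ± 0.12), Tars (0.62 ± 0.09), Gars (0.73 ± 0.11) and Cars (0.73 ± 0.11). In cortex 4 rose and 0 fell (5 and 0 at an unadjusted p under 0.05, 4 and 0 by DESeq2), with a median of 0.11: Sars (0.46 ± 0.08), Vars (0.31 ± 0.06), Mars (0.26 ± 0.06) and Yars (0.24 ± 0.06). Beside these counts, 19.4% of all genes tested rose and 18.2% fell in glomeruli, and 10.8% and 9.29% in cortex. Of 31 further genes of ER folding, degradation and translocation 3 rose (9.68%) and 11 fell (35.5%) in glomeruli, with a median of -0.25. In cortex 3 rose (9.68%) and 5 fell (16.1%), with a median of -0.08. The lower ones in glomeruli included the ER-bound factors Creb3 (-0.77 ± 0.08) and Creb3l2 (-1.0 ± 0.17), Sil1, a nucleotide exchange factor of BiP (-0.71 ± 0.08), and Selenos, a selenoprotein of ER-associated degradation (-0.73 ± 0.11). In cortex Derl3, a degradation factor of secretory cells, rose (1.42 ± 0.36), and Creb3l1 (-0.61 ± 0.15), Creb3l2 (-0.23 ± 0.06) and Edem3 (-0.29 ± 0.08) fell.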

How the data were processed

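Per the labels' protocols, total RNA came from a Qiagen RNeasy kit and libraries from the SMARTER kit for mRNA. The authors deposited whole-number read counts per symbol for glomeruli. For cortex the authors deposited, from the values, estimated counts made whole (15 values above 0 had an FPKM of 0), used without further rounding. The FPKM values the authors deposited for both tissues served as alternatives. Builds were GRCm38 and mm10, per the submitters' processing notes. Aligner, counter and strand use: not given in the sources used here, so reads shared with copies or overlapping genes are uncertain. Of the cortex identifiers 31953 matched a GENCODE M21 symbol, and those unmatched held 0.32% of counts; 19024 genes joined the tables. The tests used edgeR 4.0.16 under R 4.3.3 (filterByExpr, TMM, glmQLFit with robust dispersion, glmQLFTest, Benjamini-Hochberg adjustment over all genes, threshold 0.05), after a check on simulated data. DESeq2 1.42.0, limma 3.58.1 on log2(FPKM + 1) and log2(FPKM + 0.1), other scalings, no filter and leaving out samples were alternatives. CPM uses TMM-scaled totals. An SE is the fold change divided by the root of the F statistic. Arm means add 0.05 CPM before the log. Values in every sample are given for up to 12 called members a tissue with the smallest adjusted p and for Atf4, Ddit3, Xbp1 and Hspa5, and of each other list up to 4 called genes are named. Genes named outside this rule were chosen after their values were seen. The members and lists were chosen with earlier results of these data known. Promoters are from RefSeq (GRCm38.p6), and 1 promoter stretch is not reported here.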

Additional observations from a re-analysis of the deposited data

Results flagged for a closer look

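Of the 43 genes, 14 had a diabetic effect that differed between glomeruli and cortex by edgeR's test of the difference itself (glomeruli minus cortex, log2). These were 14.0% of the 43 genes higher and 18.6% lower, where 18.8% and 16.3% of all genes tested were called, so the shares lay near those of all genes. Higher in glomeruli were Psph (1.49), Vldlr (1.49), Eif2ak3 (1.15), Shmt2 (1.14), Psat1 (1.02) and Slc3a2 (0.50). Lower were Cebpb (-1.49), Atf5 (-0.98), Ddit3 (-0.97), Sdf2l1 (-0.95), Herpud1 (-0.77), Dnajb9 (-0.65), Creld2 (-0.62) and Xbp1 (-0.49). Vldlr was the 1 gene called in opposite directions in the 2 tissues.

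Among 86 gene and group combinations of 4 cortex libraries, 4 had a library far from the other libraries of its group (gap over range above Dixon's critical value), and chance alone puts about 1 in 20 such groups there. Diabetic library 2 was low for Atf4 at 66.8 CPM, where the others began at 102 CPM. Diabetic library 3 was high for Atf5 at 22.7 CPM, above 16.1 CPM. Diabetic library 4 was high for Pdia3 at 553 CPM, above 510.3 CPM. Control library 4 was low for Manf, a secreted ER stress protein, at 23.9 CPM, below 44.1 CPM, and was also the library with few proximal tubule markers. Glomerular groups of 3 samples were not examined in this way.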

How the results depend on the processing

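In glomeruli 12 to 18 genes of the ATF4 arm were called higher and 0 lower in every alternative run, and in cortex 8 to 12 were called higher. Library totals, log2(FPKM + 1) and log2(FPKM + 0.1) gave glomerular medians of 0.86, 0.85 and 0.86 for the ATF4 arm and 0.12, 0.11 and 0.11 for the chaperone arm. They called 17, 18 and 18 genes of the ATF4 arm higher and 5 chaperone genes in each of the 3. Beside these, 4388 of all 15238, 3605 of 12808 and 3628 of 12808 genes were called higher. The same 3 settings turned the direction of Ddit3 (0.05 in each), Edem1 (0.03 in each), Calr (0.13 in each), Creld2 (0.10, 0.09 and 0.10) and Hyou1 (0.10 in each), none of them called with TMM. They called 4 chaperone genes higher in cortex, as did DESeq2, which called 1 lower. Of all genes in cortex library totals called 2326 of 19228 higher, the 2 FPKM settings 2138 and 2135 of 14370, and DESeq2 2628 of 19228. Library totals gave Atf4 0.01 in cortex, and 2 chaperone genes with a larger change in glomeruli than in cortex. The share of calls that were higher was 63.5% instead of 53.7% in cortex with library totals, and 69.0% instead of 53.6% for the difference between tissues. The 8 separate glomerular libraries called 1 chaperone gene higher, and the 16 separate libraries 8 genes of the ATF4 arm in the difference. Without diabetic libraries 1, 3 and 4 the glomerular median of the ATF4 arm was 0.90, 0 chaperone genes were lower and Cebpb was at -0.02, with 1356 of all genes called higher and 937 lower instead of 2949 and 2767. The cause of these shifts was not tested.

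Leaving out 1 sample at a time gave a glomerular chaperone median of -0.13 to 0.02, and log2 fold changes of -0.00 to 0.46 for Cebpb, -0.01 to 0.14 for Atf6, -0.02 to 0.15 for Pdia4 and -0.14 to 0.04 for Calr. In cortex it gave 1 to 2 lower genes and a median of 0.42 to 0.87 for the ATF4 arm, and 1 to 4 higher and 0 to 2 lower genes for the chaperone arm, the upper ends without control library 4. Single cortex genes ranged from -0.10 to 0.11 for Atf4, -0.01 to 0.02 for Nars, -0.04 to 0.12 for Eif2ak3, -0.16 to 0.01 for Pdia3 and -0.04 to 0.15 for Calr. In the difference 0 to 1 chaperone genes were higher.

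The labels number the libraries of each group, but same-numbered libraries did not deviate together (correlations from -0.058 to 0.107 in glomeruli and from -0.103 to 0.043 in cortex), so the numbers were not taken as pairs. A fit with the number as a replicate block used the 8 glomerular libraries separately, without summing the close pairs. In glomeruli the ATF4 arm then had 17 higher and 0 lower genes, where the 8 separate libraries without a block gave 16 and 0. With the block the ATF4 arm had 9 and 1 in cortex. The chaperone arm had 0 and 4 in glomeruli and 1 and 0 in cortex. Pdia4 was at -0.00 in the glomerular fit with the block. In the difference the block, with 16 separate libraries, gave 6 higher and 4 lower genes of the ATF4 arm and 0 and 4 of the chaperone arm. All calls in cortex went from 2069 higher and 1787 lower to 1389 and 986. Genes of few counts, such as Slc7a11 in cortex (5 to 43 a library), are limited by depth.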
